A study of Homo sapiens with 12 samples.

Results

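The 39 genes described here are targets of the transcription factor p53, taken as a fixed list of gene names out of 27522 gene names on the array. A member was found through any probe whose accession leads to its symbol in RefSeq, which gave 55 probes for the 39 genes and several probes for 14 of them. Cytoplasmic RNA of U2OS cells, a human osteosarcoma line, was measured on 12 one-colour Agilent arrays. The 4 groups of 3 arrays each were cells given 20 nM of a control siRNA, of siRNA against DBP5 (an RNA helicase that works in mRNA export, listed on the array as DDX19B), of siRNA against GLE1 (an activator of DBP5) and of siRNA against IPPK (the kinase that makes inositol hexakisphosphate, a cofactor of that activation). All cells were the same line, all were transfected with Lipofectamine2000 and all RNA came from the fraction freed by a detergent lysis, so values are cytoplasmic levels. The 4 arrays that carry one replicate number, 1 per siRNA, lay on the same slide, and there were 3 slides. The labels do not give the siRNA sequence used on the arrays, and the methods call the 3 replicates independent array experiments.

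In unstressed cells p53 is kept low by MDM2 and its partner MDM4, and after DNA damage or another stress it accumulates and binds a pair of adjacent sites near its target genes. The targets form several arms, namely feedback on p53 itself, arrest of the cell cycle, death receptors at the cell surface, death and survival factors inside the cell, metabolic and antioxidant enzymes, and DNA repair or secreted factors. U2OS cells keep this response but lack ARF, an inhibitor of MDM2, and carry a truncated, hyperactive form of the p53 phosphatase PPM1D.

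Each siRNA lowered its own target. DDX19B stood at a log2 intensity of 10.24, 10.13 and 10.14 on the control arrays and at 6.26, 6.19 and 6.19 on the DBP5 siRNA arrays, a 15.5-fold fall. GLE1 stood at 8.30, 8.32 and 8.26 with control and at 5.43, 4.86 and 4.73 with GLE1 siRNA, a 9.77-fold fall. Its signal on the GLE1 siRNA arrays was dim, though well above background on all 3. IPPK stood at 9.33, 9.42 and 9.46 with control and at 6.95, 6.94 and 7.04 with IPPK siRNA, a 5.38-fold fall. The paper, with its own processing, reports smaller reductions of GLE1 and IPPK from these arrays. The other targets were not all level. IPPK was 2.39-fold lower after DBP5 knock-down and DDX19B 2.01-fold lower after GLE1 knock-down. DDX19A, the paralog of DDX19B, fell with DBP5 siRNA at least as far as DDX19B did, so that siRNA did not lower DDX19B alone. With IPPK siRNA DDX19A was 3.31-fold lower than control. Probes well above background made up 70.9% to 73.8% of all probes on the IPPK siRNA arrays and 73.4% to 77.7% on the other 9 arrays, and 0 spots were saturated. Of 9 osteoblast lineage markers, 8 were above background on all 12 arrays, among them RUNX2, the defining transcription factor of that lineage. Of 5 epithelial markers, KRT8, KRT18 and EPCAM were also above background on all 12 arrays, CDH1 on 0 control arrays and on 3 DBP5, 3 GLE1 and 2 IPPK siRNA arrays, and KRT5 on 0 arrays. Of the 4 tested, CDH1 was called higher with each siRNA, but against control signals that did not pass. It entered the test only through the DBP5 and GLE1 siRNA arrays, where it was high. Of the others 2 were lower with DBP5, 1 with GLE1 and 3 with IPPK siRNA. With IPPK siRNA KRT8, KRT18 and EPCAM had log2 differences from control of -0.91, -0.77 and -0.92 (adjusted p = 1.6e-05, 4.4e-06 and 0.0047 by limma). Of 3 tested endothelial markers 1 was lower with DBP5, 1 higher with GLE1 and 2 lower with IPPK siRNA, and of 4 tested blood cell markers 1 was lower with GLE1 siRNA and 0 were called with the others. The part of these markers in the members' values was not tested.

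Which members carry a p53 site near their start was read from RefSeq promoter windows on GRCh38.p14, each 250 bases before to 50 bases after a start, and 30 of the 39 members have such a window. The p53 consensus site of 10 bases, which reads alike on both strands, was searched without a mismatch, and a pair of adjacent sites was searched with at most 2 mismatches in all. A single exact site lay in the windows of 5 of the 30 members (16.7%), against 8.06% of 27305 genes with a window, and an adjacent pair lay in those of 2 members (6.67%), against 0.201% of all genes. The sequences are shown because FAS, SESN1, RPS27L and FDXR were higher than control after each knock-down while AEN was called after 1 knock-down by its brightest probe, although all of them match within these windows. The site or pair of sites is in capitals, which in the pairs of FAS and AEN include 2 mismatches each, and each line reads 5′ to 3′ on the strand of the gene, and positions count back from the start. FAS (chr10:88991289-88991348, plus strand) and AEN (chr15:88621286-88621339, plus strand) hold the adjacent pairs, at -122 to -103 and at -34 to -15. SESN1 (chr6:109009008-109009057, minus strand) and RPS27L (chr15:63157507-63157556, minus strand) hold single sites, and that of FDXR (chr17:74872995-74873025, minus strand) ends at -2. A match is a description of the letters and no evidence of binding.
FAS: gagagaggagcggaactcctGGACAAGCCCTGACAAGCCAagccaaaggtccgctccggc
AEN: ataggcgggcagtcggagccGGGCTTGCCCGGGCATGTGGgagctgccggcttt
SESN1: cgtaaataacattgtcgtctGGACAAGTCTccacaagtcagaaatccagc
RPS27L: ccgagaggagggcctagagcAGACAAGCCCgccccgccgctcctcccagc
FDXR: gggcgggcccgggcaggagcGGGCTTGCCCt

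Most of the members were higher than control after each knock-down. A difference was called where limma's p, adjusted over all 20821 genes tested, was under 0.05, and 36 of the 39 members could be tested. After DBP5 knock-down 23 of the 36 were higher and 6 lower, against 27.3% and 27.1% of all genes tested. After GLE1 knock-down 29 were higher and 2 lower, against a background of 32% and 30.4%. After IPPK knock-down 25 were higher and 6 lower, against 27.3% and 28.2%. The median log2 difference of the tested members was 0.50 for DBP5, 0.91 for GLE1 and 0.60 for IPPK, beside -0.02, 0.03 and -0.03 for all genes. At 2-fold or more, 11 members were higher with DBP5 siRNA (5.37% of all genes), 15 with GLE1 siRNA (8.09%) and 9 with IPPK siRNA (5.79%), and 1 was lower by that much with DBP5 (4.52% of all genes) and 1 with GLE1 siRNA (8.19%). With IPPK siRNA the one member lower by that much (5.38%) was TNFRSF10D, whose signal was not well above background in either group, so no member with a measured level in either group was. Every called member differed in its called direction on all 3 slides, namely 29 of 29 for DBP5, 31 of 31 for GLE1 and 31 of 31 for IPPK. The calls rest on the same arrays, so this agreement is no separate support. The 3 comparisons share the control arrays, so they are not independent of one another. In RNA from whole cultures, fewer cells that express a gene and less of its RNA per cell cannot be told apart, and neither can synthesis, export and decay.

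**Figure D1:**
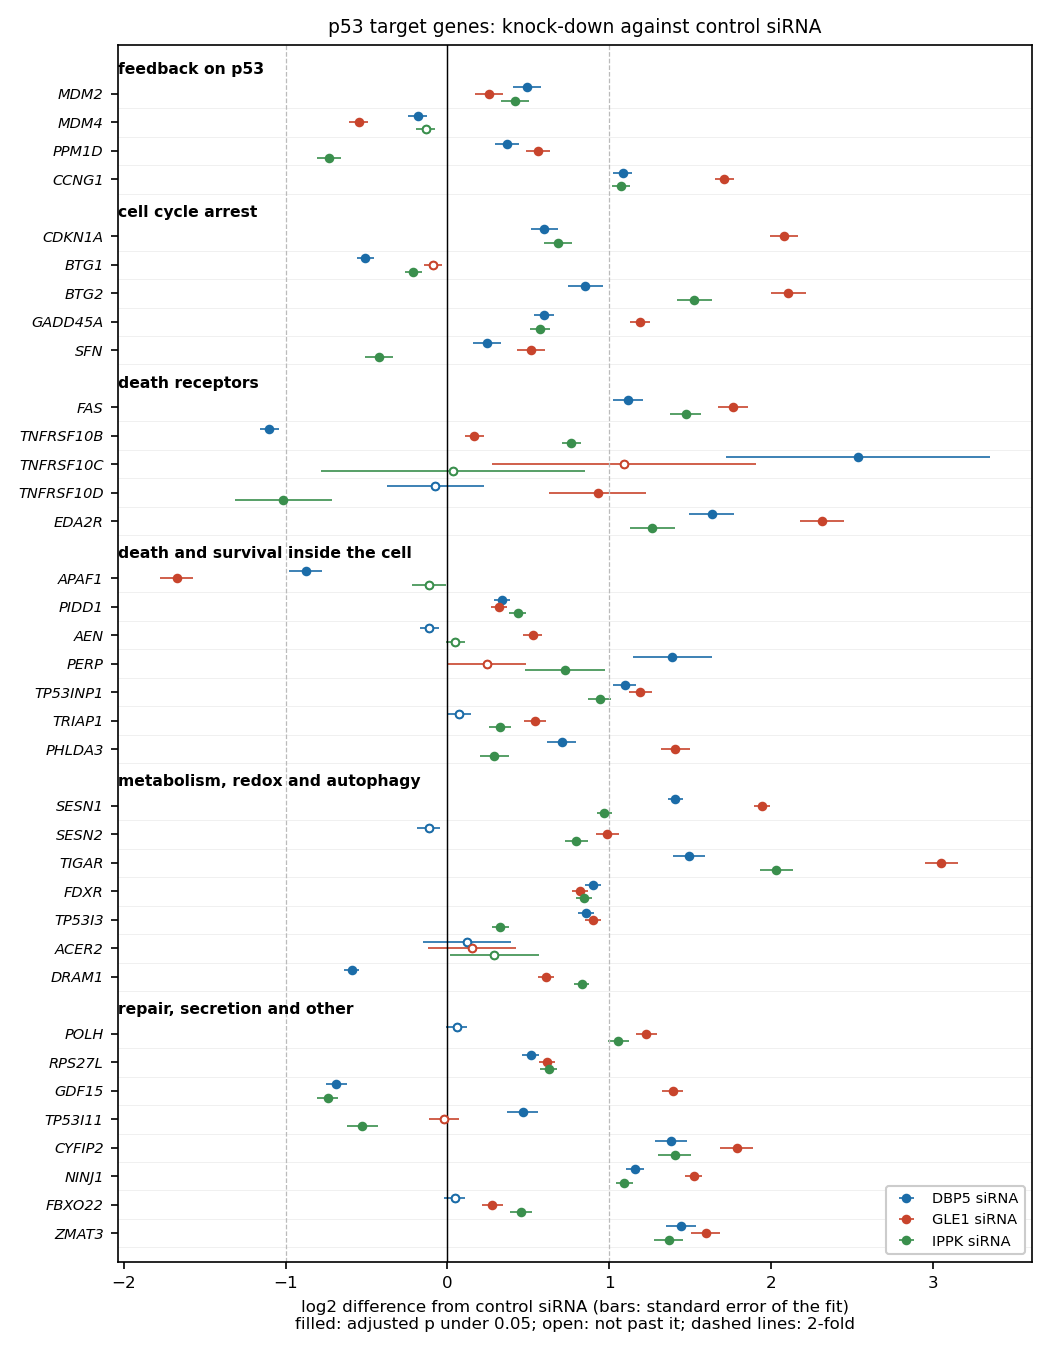
Log2 difference from control siRNA (x axis) of the 36 tested p53 target genes (y axis, grouped by arm) after DBP5 (blue), GLE1 (red) and IPPK (green) knock-down, with 3 arrays a group. Points are differences of means, bars the standard error of the limma fit, filled points passed an adjusted p of 0.05 and dashed lines mark 2-fold. TIGAR reached 3.05 after GLE1 knock-down, while APAF1 fell to -1.67 there and TNFRSF10B to -1.10 after DBP5 knock-down.

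Of the 39 members, 3 were not tested because their probe was not well above background on all 3 arrays of any siRNA. TNFRSF10A, a death receptor for the ligand TRAIL, and SPATA18, a mitochondrial quality factor, were above background on 0 of 12 arrays. CMBL, a hydrolase, was above background on 2 DBP5 and 2 GLE1 siRNA arrays. Dim members that were tested are TNFRSF10C, above background on 6 of 12 arrays, and TNFRSF10D, above background on the 3 GLE1 siRNA arrays. Each passed into the test through the group in which it was high. With these dim members left out, 22 members were higher and 6 lower with DBP5, 28 and 2 with GLE1 and 25 and 5 with IPPK siRNA, and at 2-fold or more 10, 15 and 9 were higher and 1, 1 and 0 lower.

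**Figure D2:**
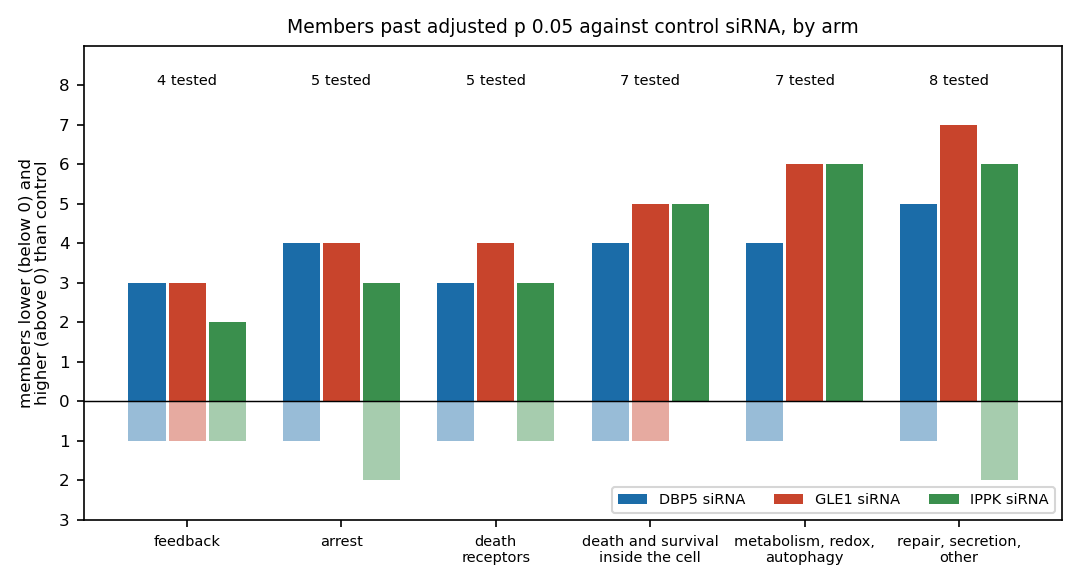
Number of tested members called higher (solid bars, above 0) and lower (pale bars, below 0) than control siRNA in each arm (x axis) after DBP5 (blue), GLE1 (red) and IPPK (green) knock-down. Each arm had more members higher than lower in all 3 knock-downs, and in the metabolic arm 6 of 7 were higher for GLE1 and for IPPK siRNA and 4 of 7 for DBP5 siRNA.

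The feedback arm holds the genes that restrain p53. With DBP5 as with GLE1 siRNA 3 of its 4 members were higher and 1 lower, and with IPPK siRNA 2 were higher and 1 lower. CCNG1, a cyclin that recruits a phosphatase to MDM2, changed most in this arm. Its log2 intensity was 11.65, 11.55 and 11.62 with control, 12.79, 12.66 and 12.62 with DBP5, 13.36, 13.30 and 13.29 with GLE1 and 12.67, 12.64 and 12.74 with IPPK siRNA. No knock-down array overlapped the control arrays, and the GLE1 siRNA arrays stood highest. The rise was 2.12 ± 0.131-fold after DBP5 (SD, n = 3; adjusted p = 1.2e-07 by limma), 3.28 ± 0.0892-fold after GLE1 (adjusted p = 2.7e-09) and 2.11 ± 0.0795-fold after IPPK knock-down (adjusted p = 1.1e-07). Its dimmer probe gave smaller rises of 1.81-fold, 2.44-fold and 1.55-fold with DBP5, GLE1 and IPPK siRNA.

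MDM2, the ubiquitin ligase that degrades p53, moved less. It stood at 9.31, 9.40 and 9.19 with control, 9.87, 9.81 and 9.70 with DBP5, 9.50, 9.69 and 9.48 with GLE1 and 9.60, 9.84 and 9.72 with IPPK siRNA. All knock-down arrays lay above all control arrays, though by little after GLE1 knock-down. The ratio to control was 1.41 ± 0.0846 for DBP5 (adjusted p = 0.00062 by limma), 1.19 ± 0.0956 for GLE1 (adjusted p = 0.024) and 1.34 ± 0.113 for IPPK (adjusted p = 0.0018). These values come from the brightest of 3 probes, and the others gave larger ratios, 2.05 and 1.70 with DBP5, 1.84 and 1.28 with GLE1 and 1.76 and 1.82 with IPPK siRNA. The calls of the brightest probe after GLE1 and IPPK knock-down were lost with normexp background correction, at log2 differences of 0.19 and 0.24, and the GLE1 call also without control replicate 1 or 3 or GLE1 siRNA replicate 2.

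PPM1D, the phosphatase that switches p53 off, went in opposite directions. It was 1.29-fold higher after DBP5 (adjusted p = 0.0017 by limma) and 1.48-fold higher after GLE1 knock-down (adjusted p = 6.3e-05), but 1.66-fold lower after IPPK knock-down (adjusted p = 1.2e-05), where its other probe gave -0.34 on the log2 scale in place of -0.73. MDM4, the partner of MDM2, was 1.46-fold lower after GLE1 knock-down (adjusted p = 1.4e-05). Its 1.14-fold fall after DBP5 knock-down was lost in a fit on the 6 arrays of that comparison and when either of the DBP5 siRNA replicates 1 and 2 or of the control replicates 2 and 3 was left out, and its log2 difference after IPPK knock-down was -0.13 (adjusted p = 0.083, and 0.025 with the slide as a block). Its dimmer probe lay further below control, by -0.71, -0.70 and -0.31 on the log2 scale with DBP5, GLE1 and IPPK siRNA (adjusted p over all probes = 0.00015, 0.00013 and 0.022), and the mean of both gave a called -0.22 for IPPK (adjusted p = 0.018).

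In the arrest arm 4 of 5 members were higher with DBP5 siRNA and 1 lower, 4 were higher with GLE1 siRNA and 0 lower, and 3 were higher and 2 lower with IPPK siRNA. CDKN1A encodes p21, the inhibitor of cyclin-dependent kinases through which p53 stops the cell cycle. Its level was 9.51, 9.29 and 9.35 with control, 9.98, 10.05 and 9.92 with DBP5, 11.65, 11.37 and 11.38 with GLE1 and 10.10, 10.04 and 10.07 with IPPK siRNA. The GLE1 siRNA arrays formed a level of their own, above all other 9 arrays. The rise was 4.23 ± 0.486-fold after GLE1 (adjusted p = 9.2e-09 by limma), 1.52 ± 0.0682-fold after DBP5 (adjusted p = 0.00014) and 1.61 ± 0.0309-fold after IPPK knock-down (adjusted p = 5.2e-05).

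BTG2, an antiproliferative factor that recruits deadenylases to mRNA, had levels of 11.30, 11.18 and 11.28 with control and of 11.85, 12.29 and 12.17 with DBP5 siRNA. With GLE1 siRNA it stood at 13.24, 13.38 and 13.46, and with IPPK siRNA at 12.67, 12.85 and 12.83. The 4 groups did not overlap, in the order control, DBP5, IPPK and GLE1. The ratios to control were 1.80 ± 0.276, 4.31 ± 0.32 and 2.88 ± 0.198 for DBP5, GLE1 and IPPK (adjusted p = 6.5e-05, 4.6e-08 and 8e-07 by limma).

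GADD45A, a stress sensor that acts on cell cycle kinases and repair, stood at 13.80, 13.81 and 13.85 with control and at 14.48, 14.38 and 14.40 after DBP5 knock-down. It stood at 15.14, 14.92 and 14.97 after GLE1 and at 14.44, 14.38 and 14.37 after IPPK knock-down. The DBP5 and IPPK siRNA arrays lay at one level and the GLE1 siRNA arrays above it. The rise was 2.28 ± 0.188-fold after GLE1 knock-down (adjusted p = 4.8e-08 by limma) and 1.51 ± 0.0545-fold and 1.49 ± 0.0398-fold after DBP5 and IPPK knock-down (adjusted p = 1.4e-05 and 1.8e-05).

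SFN and BTG1 were called lower in at least 1 knock-down. SFN, stratifin, which holds mitotic kinase complexes in the cytoplasm, was 1.43-fold higher after GLE1 (adjusted p = 0.00042 by limma) and 1.34-fold lower after IPPK knock-down (adjusted p = 0.002). Its 1.18-fold rise after DBP5 knock-down lost its call with the 75th percentile scaling, with quantile normalization and without any 1 of the control or DBP5 siRNA arrays. BTG1, a relative of BTG2, fell 1.42-fold after DBP5 (adjusted p = 1.6e-05) and 1.16-fold after IPPK knock-down (adjusted p = 0.0063), and its log2 difference after GLE1 knock-down was -0.09 (adjusted p = 0.18), or -0.17 and past the threshold with the authors' processed table (adjusted p = 0.0097).

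**Figure D3:**
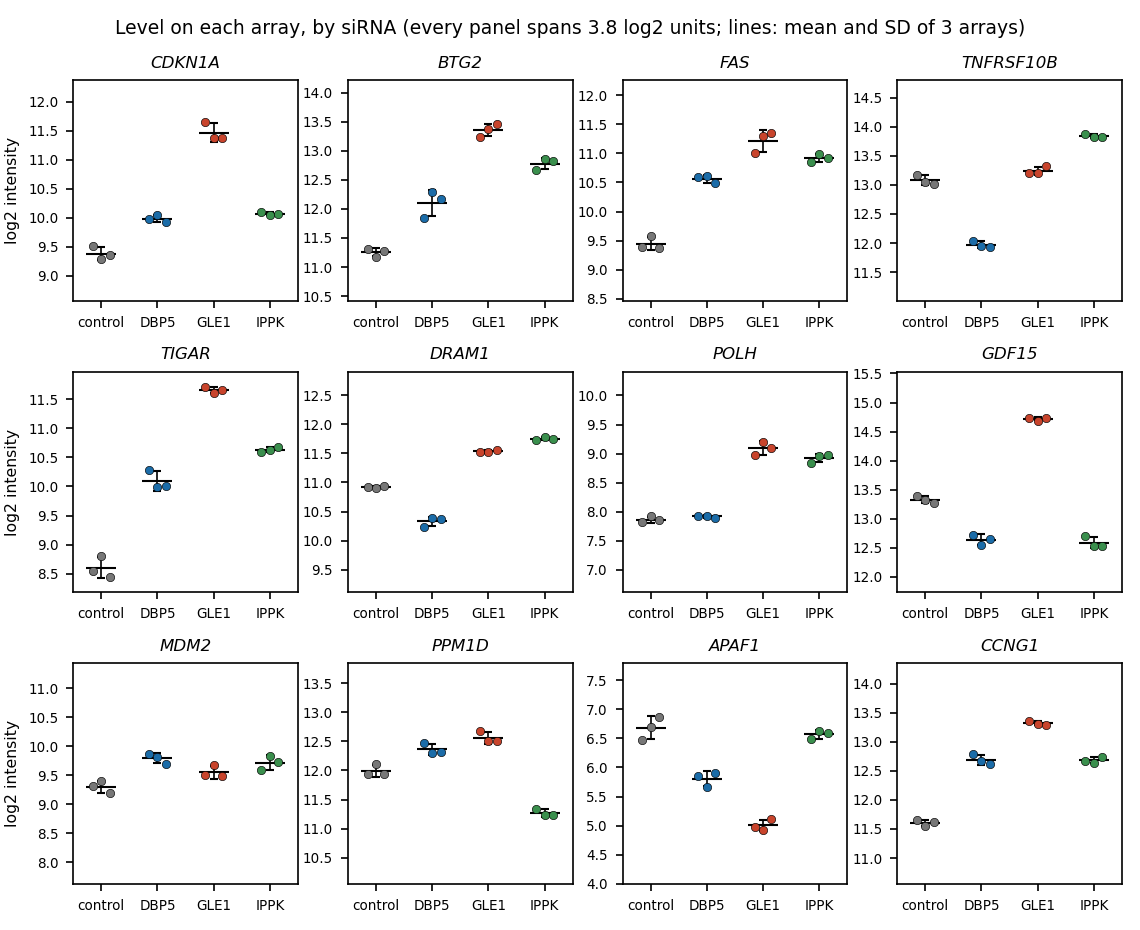
Log2 intensity (y axis) on each of the 12 arrays for 12 genes, by siRNA (x axis), with the 3 arrays of a siRNA as points and their mean and SD as lines. CDKN1A and GDF15 stood above all other arrays on the GLE1 siRNA arrays, and TNFRSF10B and DRAM1 were below control on the DBP5 siRNA arrays.

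Among the death receptors 5 of 6 were tested, of which 3 were higher and 1 lower with DBP5 siRNA, 4 higher with GLE1 siRNA, and 3 higher and 1 lower with IPPK siRNA. Without the dim decoy receptors TNFRSF10C and TNFRSF10D these counts were 2 and 1, 3 and 0, and 3 and 0 of the 3 receptors left. FAS, the receptor of the FAS ligand that starts caspase activation at the cell surface, was at 9.39, 9.58 and 9.38 with control and at 10.60, 10.61 and 10.49 after DBP5 knock-down. It was at 11.00, 11.29 and 11.35 after GLE1 and at 10.85, 11.00 and 10.92 after IPPK knock-down. All knock-down arrays lay above the control arrays. The rise was 2.17 ± 0.0995-fold with DBP5, 3.40 ± 0.422-fold with GLE1 and 2.78 ± 0.142-fold with IPPK siRNA (adjusted p = 3.2e-06, 6.1e-08 and 3.8e-07 by limma).

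EDA2R, a receptor of an ectodysplasin isoform, was also higher in each knock-down, with the DBP5 and IPPK siRNA arrays in the opposite order to those of FAS. Its level was 8.27, 8.31 and 8.35 with control, 9.95, 9.93 and 9.94 with DBP5, 10.61, 10.59 and 10.67 with GLE1 and 9.16, 9.78 and 9.79 with IPPK siRNA. Replicate 1 of the IPPK siRNA stood below the other two arrays of its group and still above the control arrays. The log2 differences from control were 1.63, 2.32 and 1.27 with DBP5, GLE1 and IPPK siRNA, each with a standard error of 0.14 (adjusted p = 3.2e-06, 1.4e-07 and 2e-05 by limma). Its dimmer probe gave smaller differences of 0.67, 0.71 and 0.53, and the mean of its probes 1.51 after GLE1 knock-down in place of 2.32.

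TNFRSF10B, a TRAIL receptor that carries a death domain, differed between the knock-downs. It stood at 13.18, 13.05 and 13.01 with control, 12.03, 11.96 and 11.93 with DBP5, 13.20, 13.21 and 13.32 with GLE1 and 13.88, 13.83 and 13.82 with IPPK siRNA. The DBP5 siRNA arrays lay below and the IPPK siRNA arrays above all control arrays. It fell 2.15-fold after DBP5 knock-down (adjusted p = 1.3e-07 by limma) and rose 1.70 ± 0.0348-fold after IPPK knock-down (adjusted p = 1.4e-06). The 1.12-fold difference after GLE1 knock-down (adjusted p = 0.031) was no longer called with 75th percentile scaling, with the 6 arrays of that comparison alone, or without control replicate 2 or 3 or GLE1 siRNA replicate 3.

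The decoy receptors of TRAIL, which bind the ligand without passing on a full death signal, were dim. TNFRSF10C was at 4.14, 3.30 and 3.18 with control, 5.90, 6.22 and 6.11 with DBP5, 7.01, 3.75 and 3.12 with GLE1 and 3.36, 3.13 and 4.22 with IPPK siRNA. It was well above background on all 3 DBP5 siRNA arrays and on 1 array of each other siRNA, and replicate 1 of the GLE1 siRNA stood far above the other two arrays of its group. It entered the test only through the DBP5 siRNA arrays, and the level of the other groups rests mostly on signals that did not pass, so no fold and no test is given for it.

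TNFRSF10D was at 3.22, 3.70 and 3.70 with control, 3.63, 3.02 and 3.75 with DBP5, 4.52, 4.53 and 4.36 with GLE1 and 2.27, 2.04 and 3.27 with IPPK siRNA. It was well above background on the GLE1 siRNA arrays and on 0 arrays of the other groups. It entered the test only through the GLE1 siRNA arrays, where it was high, and its calls as higher after GLE1 and lower after IPPK knock-down are set against control signals that did not pass, so no fold and no test is given for it.

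Of the 7 members that act in death or survival inside the cell, 4 were higher and 1 lower with DBP5, 5 higher and 1 lower with GLE1 and 5 higher and 0 lower with IPPK siRNA. APAF1, the scaffold on which cytochrome c activates caspases, went down. Its level was 6.47, 6.70 and 6.87 with control, 5.85, 5.66 and 5.90 with DBP5, 4.98, 4.92 and 5.12 with GLE1 and 6.49, 6.63 and 6.59 with IPPK siRNA. The DBP5 and GLE1 siRNA arrays lay below all control arrays and the IPPK siRNA arrays among them. The fall was 3.19-fold after GLE1 (adjusted p = 1.9e-07 by limma) and 1.84-fold after DBP5 knock-down (adjusted p = 4e-05), with a log2 difference of -0.11 after IPPK knock-down (adjusted p = 0.4). With normexp background correction the log2 differences were -0.81 after GLE1 and -0.48 after DBP5 knock-down, in place of -1.67 and -0.88.

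PERP, a membrane protein of the tetraspan family with a part in p53-dependent death, was at 11.06, 11.12 and 11.06 with control, 12.43, 12.45 and 12.54 with DBP5, 10.58, 11.66 and 11.74 with GLE1 and 11.65, 11.86 and 11.92 with IPPK siRNA. It rose most after DBP5 knock-down, and replicate 1 of the GLE1 siRNA stood below control while the other two arrays of its group stood above. The rise was 2.62 ± 0.107-fold after DBP5 knock-down (adjusted p = 0.00066 by limma). The log2 difference after GLE1 knock-down was 0.24 (adjusted p = 0.43), and 0.62 without that array, which then passed the threshold. The 1.66-fold difference after IPPK knock-down (adjusted p = 0.027) lost its call without IPPK siRNA replicate 2 or 3 and without any 1 of the control arrays.

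TP53INP1, a nuclear protein of stressed cells that acts with p53 kinases and in autophagy, was higher in each knock-down. It was at 9.58, 9.55 and 9.49 with control, 10.66, 10.74 and 10.53 with DBP5, 10.85, 10.73 and 10.63 with GLE1 and 10.55, 10.43 and 10.47 with IPPK siRNA. No knock-down array overlapped the control arrays. The rise was 2.14 ± 0.155-fold, 2.29 ± 0.173-fold and 1.92 ± 0.0832-fold after DBP5, GLE1 and IPPK knock-down (adjusted p = 5e-07, 1.5e-07 and 1.4e-06 by limma).

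PHLDA3, which keeps the kinase AKT from the membrane, was graded. It stood at 11.96, 11.85 and 12.04 with control, 12.51, 12.64 and 12.82 with DBP5, 13.51, 13.27 and 13.29 with GLE1 and 12.23, 12.24 and 12.24 with IPPK siRNA. The 4 groups did not overlap. The rise was 1.63 ± 0.179-fold after DBP5 (adjusted p = 6.4e-05 by limma) and 2.66 ± 0.244-fold after GLE1 knock-down (adjusted p = 2.3e-07), and the 1.22-fold rise after IPPK knock-down (adjusted p = 0.018) lost its call without control replicate 2.

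Smaller differences were found for the other 3 genes of this arm. PIDD1, the core of a caspase-activating complex, was 1.26-fold, 1.25-fold and 1.35-fold higher after DBP5, GLE1 and IPPK knock-down (adjusted p = 0.00022, 0.00024 and 3.4e-05 by limma). AEN, a nuclease of dying cells, was 1.44-fold higher after GLE1 knock-down (adjusted p = 2.3e-05), with log2 differences of -0.11 and 0.05 after DBP5 and IPPK knock-down (adjusted p = 0.15 and 0.53), the former -0.18 and past the threshold without control replicate 2, -0.20 by the mean of its probes (adjusted p = 0.014) and -0.28 by its dimmer probe. TRIAP1, an inhibitor of the apoptosome, was 1.46-fold higher after GLE1 (adjusted p = 4.9e-05) and 1.25-fold higher after IPPK knock-down (adjusted p = 0.0022), with 0.07 on the log2 scale after DBP5 knock-down (adjusted p = 0.41).

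In the arm of metabolism, redox control and autophagy 7 of 9 members were tested. After DBP5 knock-down 4 were higher and 1 lower, and with GLE1 as with IPPK knock-down 6 were higher and 0 lower. TIGAR, a fructose bisphosphatase that steers glucose into the pentose phosphate pathway, had the largest difference of all members tested. It stood at 8.55, 8.80 and 8.45 with control, 10.29, 9.99 and 10.01 with DBP5, 11.71, 11.60 and 11.66 with GLE1 and 10.59, 10.63 and 10.68 with IPPK siRNA. The 4 groups were separate, with GLE1 at the top. The rise was 2.81 ± 0.339-fold with DBP5, 8.31 ± 0.303-fold with GLE1 and 4.10 ± 0.128-fold with IPPK siRNA (adjusted p = 6.3e-07, 2.4e-09 and 6.2e-08 by limma).

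The sestrins SESN1 and SESN2 restrain the growth kinase mTORC1 and oxidative stress, and they differed from each other. SESN1 stood at 8.42, 8.35 and 8.40 with control, 9.76, 9.81 and 9.82 with DBP5, 10.31, 10.33 and 10.36 with GLE1 and 9.43, 9.30 and 9.34 with IPPK siRNA. The 3 arrays of each siRNA lay close together and apart from the other groups. The rise of SESN1 was 2.66 ± 0.0618-fold, 3.85 ± 0.0608-fold and 1.96 ± 0.0891-fold after DBP5, GLE1 and IPPK knock-down (adjusted p = 7.6e-09, 4.4e-10 and 5.9e-08 by limma). SESN2 was 1.98-fold and 1.74-fold higher after GLE1 and IPPK knock-down (adjusted p = 5.2e-07 and 4.1e-06), with -0.12 on the log2 scale after DBP5 knock-down (adjusted p = 0.19), or -0.20 and past the threshold without DBP5 siRNA replicate 3.

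FDXR, the mitochondrial ferredoxin reductase, was higher by nearly the same factor in each case, 1.87-fold, 1.77-fold and 1.79-fold after DBP5, GLE1 and IPPK knock-down (adjusted p = 2e-07, 2e-07 and 2.6e-07 by limma). TP53I3, a quinone oxidoreductase, was 1.81-fold and 1.87-fold higher after DBP5 and GLE1 knock-down (adjusted p = 2.6e-07 and 9.1e-08) and 1.25-fold higher after IPPK knock-down (adjusted p = 0.00027). DRAM1, a lysosomal membrane protein that promotes autophagy, was 1.53-fold and 1.78-fold higher after GLE1 and IPPK knock-down (adjusted p = 1.1e-06 and 1.8e-07) but 1.51-fold lower after DBP5 knock-down (adjusted p = 2.4e-06). ACER2, a ceramidase of the Golgi, had log2 differences of 0.12, 0.15 and 0.29 with a standard error of 0.27 (adjusted p = 0.76, 0.67 and 0.4), of which the last passed with the slide as a block (adjusted p = 0.0097). CMBL was not tested, and no fold is given for it.

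The last 8 members act in DNA repair, as secreted factors or elsewhere, and 5 were higher and 1 lower with DBP5, 7 higher and 0 lower with GLE1 and 6 higher and 2 lower with IPPK siRNA. POLH, the polymerase eta that copies past ultraviolet lesions, was at 7.82, 7.92 and 7.85 with control and at 7.93, 7.94 and 7.90 after DBP5 knock-down. It was at 8.98, 9.21 and 9.10 after GLE1 and at 8.84, 8.96 and 8.97 after IPPK knock-down. The DBP5 siRNA arrays overlapped the control arrays, and the arrays of the other knock-downs stood above them. The rise was 2.34 ± 0.187-fold after GLE1 and 2.08 ± 0.103-fold after IPPK knock-down (adjusted p = 5.5e-08 and 2.8e-07 by limma), with 0.06 on the log2 scale after DBP5 knock-down (adjusted p = 0.51). Its dimmer probe, above background on all 12 arrays, differed less between the knock-downs, at 1.33-fold, 1.41-fold and 1.29-fold of control with DBP5, GLE1 and IPPK siRNA (adjusted p over all probes = 0.039, 0.014 and 0.056).

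GDF15, a secreted stress hormone of the TGF-beta family, rose after GLE1 knock-down and fell after the other two. It was at 13.39, 13.32 and 13.27 with control, 12.73, 12.55 and 12.65 with DBP5, 14.73, 14.69 and 14.74 with GLE1 and 12.70, 12.54 and 12.53 with IPPK siRNA. The DBP5 and IPPK siRNA arrays lay together, below all control arrays. It was 2.63 ± 0.0508-fold higher after GLE1 knock-down (adjusted p = 2.4e-08 by limma), 1.61-fold lower after DBP5 (adjusted p = 7.8e-06) and 1.67-fold lower after IPPK knock-down (adjusted p = 4.2e-06).

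CYFIP2, NINJ1 and ZMAT3 rose at least 2-fold after each knock-down. CYFIP2, a part of the actin-regulating WAVE complex, was at 7.04, 7.03 and 6.83 with control, 8.17, 8.52 and 8.36 with DBP5, 8.85, 8.75 and 8.66 with GLE1 and 8.50, 8.34 and 8.28 with IPPK siRNA. All of these arrays lay above control, and the rise was 2.61 ± 0.321-fold, 3.46 ± 0.223-fold and 2.65 ± 0.209-fold (adjusted p = 1.1e-06, 9.3e-08 and 9e-07 by limma). The rise after IPPK knock-down was 0.88 on the log2 scale with normexp background correction in place of 1.41.

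NINJ1, the protein that ruptures the plasma membrane of dying cells, was at 14.54, 14.66 and 14.61 with control, 15.83, 15.71 and 15.76 with DBP5, 16.17, 16.10 and 16.11 with GLE1 and 15.77, 15.65 and 15.67 with IPPK siRNA. The DBP5 and IPPK siRNA arrays overlapped, with the GLE1 siRNA arrays above them. The rise was 2.24 ± 0.0876-fold, 2.87 ± 0.082-fold and 2.14 ± 0.0965-fold after DBP5, GLE1 and IPPK knock-down (adjusted p = 5.5e-08, 4.1e-09 and 6.6e-08 by limma).

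ZMAT3, a zinc finger protein that binds RNA and guides splicing, was at 8.50, 8.38 and 8.61 with control, 9.79, 10.14 and 9.89 with DBP5, 10.08, 10.07 and 10.14 with GLE1 and 9.77, 9.91 and 9.92 with IPPK siRNA. The knock-down arrays lay in one range above control. The rise was 2.72 ± 0.346-fold, 3.02 ± 0.0744-fold and 2.58 ± 0.146-fold (adjusted p = 4e-07, 1e-07 and 5.2e-07 by limma).

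The other members of this group changed less. RPS27L, a ribosomal protein paralog, was 1.43-fold, 1.53-fold and 1.54-fold higher after DBP5, GLE1 and IPPK knock-down (adjusted p = 1.1e-05, 1.7e-06 and 2.3e-06 by limma). FBXO22, a subunit of a ubiquitin ligase, was 1.21-fold and 1.37-fold higher after GLE1 and IPPK knock-down (adjusted p = 0.0042 and 0.0002), with 0.04 on the log2 scale after DBP5 knock-down (adjusted p = 0.63). Its dimmer probe was 1.58-fold, 2.39-fold and 1.69-fold higher with DBP5, GLE1 and IPPK siRNA. By the mean of both, FBXO22 was called higher with DBP5 siRNA, at 0.35 on the log2 scale (adjusted p = 0.00014). TP53I11 was 1.38-fold higher after DBP5 (adjusted p = 0.0018) and 1.44-fold lower after IPPK knock-down (adjusted p = 0.0008), and its log2 difference after GLE1 knock-down was -0.02 by the brightest probe and 0.39 by the mean of its 2 probes. Its dimmer probe gave 0.34, 0.81 and -0.18 on the log2 scale with DBP5, GLE1 and IPPK siRNA (adjusted p over all probes = 0.0028, 4.2e-06 and 0.064).

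The knock-downs were then compared with each other, which asks where the members answered one knock-down more than another. GLE1 knock-down gave the higher level of 23 of the 36 members and the lower of 5 when set against DBP5 knock-down, beside 27.7% and 27.2% of all genes tested. Against IPPK knock-down it gave the higher level of 22 and the lower of 5, beside 31.2% and 29.6%. DBP5 and IPPK knock-down were more even, with 10 members higher and 11 lower after DBP5, beside 24.7% and 24.4%. At 2-fold or more, GLE1 knock-down gave the higher level of 9 members and the lower of 1 against DBP5 (4.76% and 5.17% of all genes) and of 7 and 1 against IPPK knock-down (6.45% and 6.97%), and DBP5 knock-down that of 2 and 3 against IPPK knock-down (3.38% and 3.24%). The median log2 difference of the members was 0.41, 0.34 and -0.01 in these comparisons, and that of all genes 0.04, 0.04 and 0.01. All called members kept their direction on all 3 slides in each of these comparisons (28 of 28, 27 of 27 and 21 of 21), which again rests on the arrays that gave the calls. The count of members higher after DBP5 than after IPPK knock-down dropped to 6 without DBP5 siRNA replicate 1, and the dim TNFRSF10D, below background in both of those groups, is among the 10. Without both dim decoy receptors GLE1 knock-down gave the higher level of 22 members against DBP5 and 21 against IPPK knock-down, and DBP5 knock-down that of 8 against IPPK, of which 8, 6 and 1 differed at least 2-fold.

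**Figure D4:**
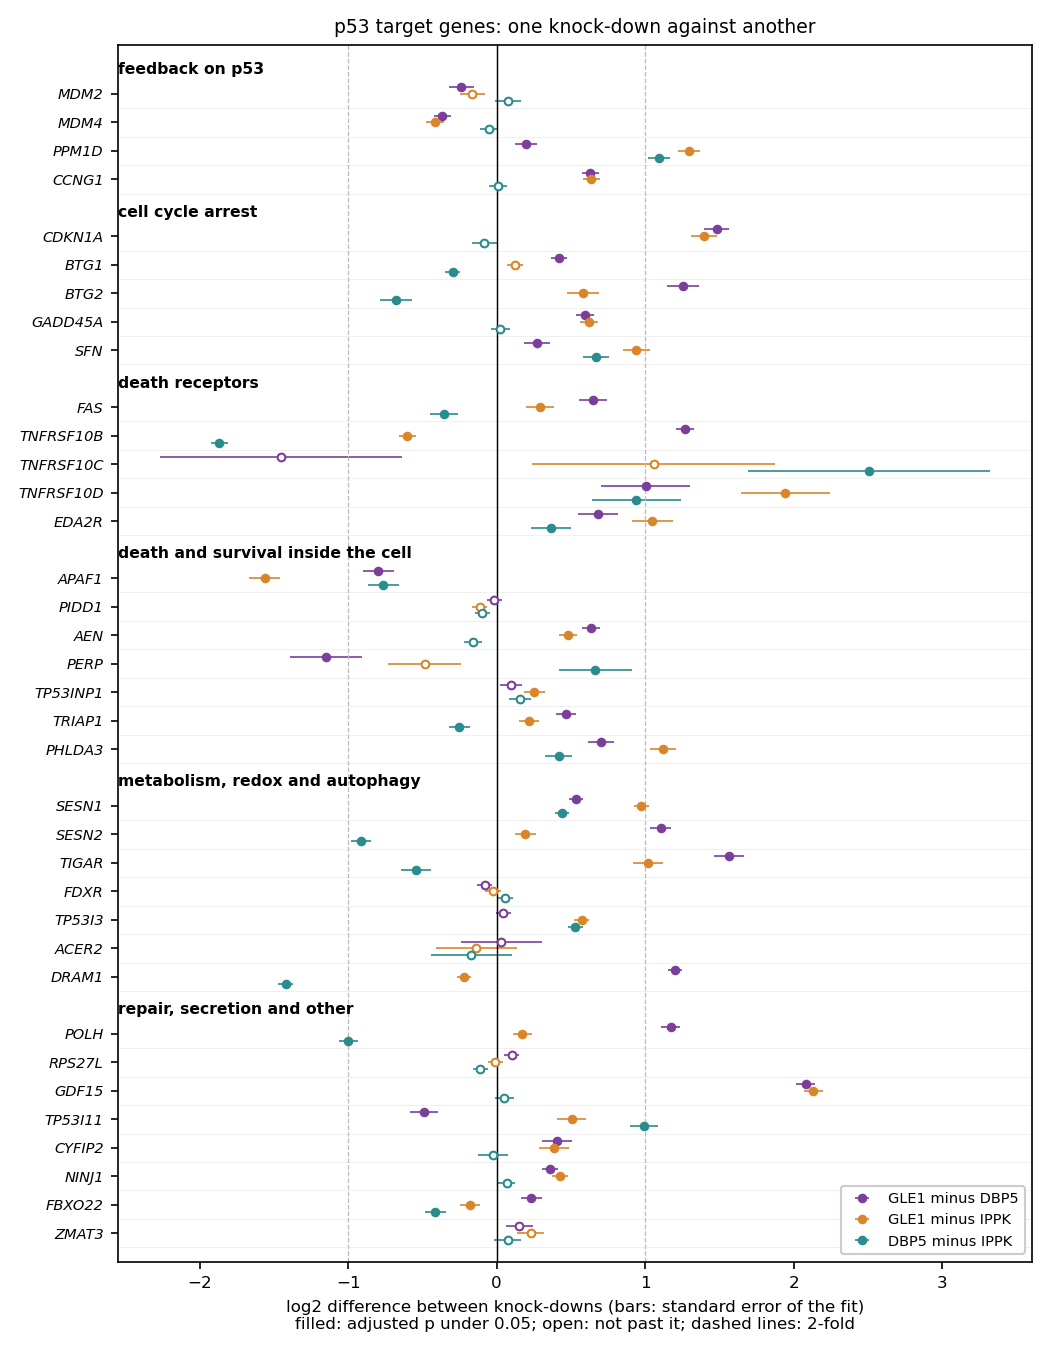
Log2 difference between knock-downs (x axis) of the 36 tested p53 target genes (y axis, grouped by arm) for GLE1 minus DBP5 (purple), GLE1 minus IPPK (orange) and DBP5 minus IPPK (teal), with 3 arrays a group. Points are differences of means, bars the standard error of the limma fit and filled points passed an adjusted p of 0.05. GDF15 differed by 2.08 and 2.13 between GLE1 and the other knock-downs and by 0.05 between DBP5 and IPPK, and TNFRSF10B by -1.87 between DBP5 and IPPK.

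In the arrest arm GLE1 knock-down gave higher levels of all 5 members when set against DBP5 and of 4 when set against IPPK knock-down. CDKN1A was 2.79-fold and 2.63-fold higher (adjusted p = 1.9e-07 and 2.1e-07 by limma), whereas DBP5 and IPPK knock-down gave a log2 difference of -0.08 ± 0.08 (SE; adjusted p = 0.45). GDF15 had the same pattern, with a difference of 2.08 ± 0.07 from DBP5 and 2.13 ± 0.07 from IPPK knock-down (SE; adjusted p = 5e-09 and 2.4e-09) and 0.05 ± 0.07 between those (adjusted p = 0.56). With GLE1 siRNA TIGAR was higher by 1.56 and 1.02 on the log2 scale than with DBP5 and IPPK siRNA (adjusted p = 4.3e-07 and 8e-06), and DBP5 minus IPPK knock-down was -0.54 (adjusted p = 0.0012).

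Another set of members stood lower after DBP5 than after either other knock-down. TNFRSF10B was 3.65-fold lower after DBP5 than after IPPK knock-down (adjusted p = 1.1e-08 by limma) and 2.41-fold higher with GLE1 than with DBP5 siRNA (adjusted p = 4.4e-08). DRAM1 was 2.68-fold lower after DBP5 than after IPPK knock-down (adjusted p = 1.6e-08), SESN2 1.88-fold lower (adjusted p = 2.4e-06) and POLH 2.00-fold lower (adjusted p = 7.4e-07). The same genes were higher with GLE1 than with DBP5 siRNA by log2 differences of 1.20, 1.10 and 1.17 (adjusted p = 1.7e-08, 3.9e-07 and 1.5e-07). GLE1 and IPPK knock-down differed less in these 4 genes, by log2 differences of -0.60 for TNFRSF10B, -0.22 for DRAM1, 0.19 for SESN2 and 0.17 for POLH, all past the threshold. The order of POLH rests on its brightest probe, since the dimmer one gave ratios of 1.03 for DBP5 against IPPK and 1.06 for GLE1 against DBP5 knock-down (adjusted p over all probes = 0.87 and 0.65).

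PPM1D was low after IPPK knock-down, by 1.29 ± 0.07 and 1.10 ± 0.07 on the log2 scale relative to GLE1 and DBP5 knock-down (SE; adjusted p = 1.4e-07 and 1e-06 by limma). Its other probe gave smaller differences of 0.78 and 0.70. SFN followed, with 0.94 and 0.67 (adjusted p = 5.6e-06 and 0.00012). APAF1 and PERP were the members with the lowest values of GLE1 relative to DBP5 knock-down among those called, at -0.80 and -1.15 (adjusted p = 7.7e-05 and 0.0023). Among the members for which the 3 knock-downs were not told apart, FDXR had log2 differences of -0.08, -0.02 and 0.06 with a standard error of 0.05, and RPS27L of 0.10, -0.01 and -0.11 with a standard error of 0.05. The probes of a pair of genes disagreed here with both directions past the threshold. Those of FBXO22 gave ratios of 0.884 and 1.42 for GLE1 against IPPK knock-down and those of TP53I11 gave 0.713 and 1.38 for GLE1 against DBP5 knock-down. The probes of CYFIP2 gave 0.984 and 1.38 for DBP5 against IPPK knock-down. By the mean of its probes CYFIP2 was called there, at 0.22 on the log2 scale in place of -0.02 (adjusted p = 0.037 by limma).

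Of 23 tested genes in a list of upstream regulators of p53, 4 were higher and 6 lower with DBP5, 8 higher and 5 lower with GLE1 and 3 higher and 7 lower with IPPK siRNA, with medians of -0.10, 0.03 and 0.0008 on the log2 scale. The shares higher were 17.4%, 34.8% and 13%, beside 27.3%, 32% and 27.3% of all genes tested, of which 27.1%, 30.4% and 28.2% were lower. ATR, the kinase that senses stalled replication, was 1.97-fold, 1.77-fold and 2.39-fold higher after DBP5, GLE1 and IPPK knock-down (adjusted p = 5.5e-08, 8.6e-08 and 8.4e-09 by limma). CHEK1, the checkpoint kinase that ATR activates, was lower by log2 differences of -0.89, -1.78 and -0.60 (adjusted p = 8.1e-08, 4.7e-10 and 1.1e-06). RCHY1, a ubiquitin ligase for p53, was 2.68-fold higher after GLE1 knock-down (adjusted p = 3.9e-07). The arrays measure RNA, and neither the p53 protein nor its modification was measured on them.

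A further list of 39 p53 target genes that are not members was read in the same way, 38 of them tested. With DBP5 knock-down 24 were higher and 5 lower, with GLE1 knock-down 30 and 4, and with IPPK knock-down 19 and 6, with median log2 differences of 0.41, 0.60 and 0.24. The shares higher were 63.2%, 78.9% and 50%, against the same background. The genes of this list with the largest differences from control past the threshold were SULF2, an extracellular sulfatase, at 3.46-fold higher after GLE1 knock-down (adjusted p = 4.9e-08 by limma), FUCA1, a lysosomal fucosidase, at 3.36-fold higher after IPPK knock-down (adjusted p = 2.1e-08), and PLK2, a kinase of the polo family, at 3.21-fold higher after GLE1 knock-down (adjusted p = 1e-09).

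GDF15, SESN2 and TNFRSF10B are also known targets of the stress response through ATF4, so 17 genes of that response were read beside them. After DBP5 knock-down 0 were higher and 12 lower, beside 27.3% and 27.1% of all genes, with a median log2 difference of -0.70. After GLE1 knock-down 3 were higher and 10 lower (median -0.31), beside 32% and 30.4%, and after IPPK knock-down 7 were higher and 3 lower (median 0.04), beside 27.3% and 28.2%. CHAC1, a glutathione-degrading enzyme of that response, had log2 differences of -2.02 and -1.22 after DBP5 and GLE1 knock-down (adjusted p = 6.2e-09 and 6.8e-08 by limma), and PSAT1, a serine synthesis enzyme, was 2.45-fold higher after IPPK knock-down (adjusted p = 8.4e-09). The part of this response in the levels of GDF15, SESN2 and TNFRSF10B was not tested. Of 3 nuclear-retained RNAs on the array, read as a check of the fraction, 1 was higher and 0 lower with DBP5, 2 higher and 0 lower with GLE1 and 1 higher and 1 lower with IPPK siRNA, numbers too small to set against those shares, and their part in the members' values was not tested.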

How the data were processed

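Cytoplasmic RNA of U2OS cells on 12 one-colour arrays was analysed, with groups and replicate numbers from the sample labels. The authors deposited, per array, the output of Feature Extraction 10.7.3.1, whose spot intensity is linear and already had its local background subtracted. Their own processed log2 table, also deposited and by the methods the product of LOESS regression in R, served as an alternative. Its columns correlated at r = 0.99982 to 0.99999 with the median spot signal before background subtraction. With the background-subtracted signal the correlation was 0.961 to 0.967.

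The background-subtracted intensity was put on the log2 scale and the arrays were brought together by cyclic loess. Differences are therefore relative to a common array level, and the total of cytoplasmic mRNA was not measured on the arrays. Control spots and 169 to 358 outlier spots an array were dropped, and replicate spots of a probe averaged. Of 34127 probes, 26449 (77.5%) were named through their accession in a RefSeq gene table, and the others kept the name of the array design. The probe with the highest mean over all arrays stood for a gene. A gene was tested if that probe was well above background on the 3 arrays of any siRNA. This left 20821 genes, of which 18420 passed on each of the 12 arrays. The number of arrays and the signal over background limit the precision. The 6 contrasts were tested with limma 3.58.1 (R 4.3.3), fitting 4 group means to the 12 arrays, and p-values were adjusted by Benjamini-Hochberg separately for each contrast, with a threshold of 0.05. Ratios are differences of mean log2 values as folds, with the SD of the 3 knock-down arrays against the mean of the other group. Tables and figures were made with pandas 2.3.3, numpy 2.4.6 and matplotlib 3.10.9 in Python 3.11.15, and the limma fit was run first on simulated arrays with known changes, as a test.

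The members and gene lists were chosen with earlier results of these data known. Values per array are given for members past the threshold and at least 2-fold different from control in 1 or more knock-downs, and for CDKN1A, MDM2, GDF15 and FAS. Other members are given by their differences. From the other lists, at most 3 genes each with the largest differences past the threshold are named. A pair of genes of those lists is not reported here and was left out of their counts.

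Arrays with the same replicate number share a slide and deviated together from their group means (18 pairs, r across genes 0.315 to 0.544, against -0.333 to -0.016 for the 36 other pairs), so the number was run as a block. Further alternatives concerned scaling (75th percentile or quantile in place of loess), background (normexp with offset 50, on the median spot signal, since the files hold no mean), the authors' processed table, dim probes (kept, or required to pass on each of the 12 arrays), the average over a gene's probes, a fit on the 6 arrays of a contrast, each array left out, and the methods' two-sided paired t-test over all genes, which they name for the figures and not for the arrays. The rank-product lists they name for the arrays were not rebuilt here. Real-time PCR and imaging data were not analysed here.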

Additional observations from a re-analysis of the deposited data

How the results depend on the processing

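Of 4740 values of single members under an alternative, 4484 kept their side of the threshold, of which 4438 also kept their direction and 46, none of them called, did not. A further 207 dropped below it, 46 passed it in the same direction, 2 passed it in the other direction and 1 called value reversed, that of FBXO22 for GLE1 against IPPK, at 0.16 on the log2 scale by the mean of its probes. With the replicate number as a block, which pairs the arrays of a slide, 23 members were higher and 6 lower after DBP5, 29 and 2 after GLE1, and 26 and 7 after IPPK knock-down, and no call was lost, while MDM4 and ACER2 after IPPK knock-down, AEN for DBP5 against IPPK and ZMAT3 for GLE1 against IPPK gained one. The count of members lower after GLE1 than after DBP5 knock-down was 3 by the mean of the probes and 2 by the methods' paired t-test, in place of 5. That test also gave 3 higher and 5 lower after DBP5 than after IPPK knock-down, in place of 10 and 11. Leaving out 1 array at a time gave 21 to 23 members higher and 5 to 7 lower after DBP5, 27 to 29 higher and 2 lower after GLE1, and 23 to 25 higher and 5 to 7 lower after IPPK knock-down. It gave 21 to 24 higher and 4 to 5 lower after GLE1 than after DBP5, 19 to 23 and 4 to 6 after GLE1 than after IPPK, and 6 to 9 and 11 to 12 after DBP5 than after IPPK knock-down, the lowest without DBP5 siRNA replicate 1. No scaling moved the median of all genes by over 0.1 on the log2 scale. Each scaling sets the arrays to a common level, so this small shift was largely fixed in advance and cannot show equal totals. Called differences of TNFRSF10C, TNFRSF10D, APAF1, CYFIP2, MDM2 and FBXO22 shrank by over 1.5 times in at least 1 comparison both with normexp background correction and with the authors' processed table. The columns of that table follow the spot signal before background subtraction, and the cause of the smaller differences was not tested. Signal over background limits TNFRSF10C and TNFRSF10D, the tested members that were not above background on all 12 arrays.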
